A study of Homo sapiens with 6 samples.

Results

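The precursor hairpins hsa-mir-15b, hsa-mir-16-2 and hsa-mir-424 (written below without hsa-) belong to the miR-15/16 family of microRNAs (miRNAs), and they were taken by name as 3 of the 147 hairpins in the deposited table. All samples were HCT116 cells, a human colorectal carcinoma line, in which DICER had been knocked out, and all were transfected with a plasmid that returns a DICER protein. In the DICER-WT rescue (3 samples) the plasmid carried full-length DICER, and in the DICER-delHelicase rescue (3 samples) it carried DICER without its helicase domain. RNA was taken 48 h after transfection, per the labels' protocols, and small RNAs were sequenced. The labels give neither the promoter of the plasmid nor whether the knockout line is 1 clone, and cells with no DICER plasmid were not analysed here.

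DICER, an RNase III enzyme, cleaves a precursor miRNA on both arms beside its loop. That cleavage sets the 3′ end of the miRNA on the 5′ arm (5p) and the 5′ end of the miRNA on the 3′ arm (3p). The helicase domain of DICER lies near the loop of a bound precursor. A miRNA finds its targets mainly through its seed, bases 2 to 8, so a shift of the 5′ end gives another seed. The 5p miRNAs of the miR-15/16 family, which are known to repress BCL2 and several cyclins, share a seed. The deposited values for the 3 hairpins are listed for their 3p miRNAs, miR-15b-3p, miR-16-2-3p and miR-424-3p, whose 5′ ends DICER makes.

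The hairpin sequences are shown because the members are relatives on the 5′ arm and differ around the loop, where DICER acts. Both miRNAs, placed by exact match of the RefSeq mature sequences (build GRCh38.p14), are in capitals, the 5p first and the 3p second.
mir-15b: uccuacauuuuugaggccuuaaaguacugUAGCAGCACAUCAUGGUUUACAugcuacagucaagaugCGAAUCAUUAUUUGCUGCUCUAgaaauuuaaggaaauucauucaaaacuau
mir-16-2: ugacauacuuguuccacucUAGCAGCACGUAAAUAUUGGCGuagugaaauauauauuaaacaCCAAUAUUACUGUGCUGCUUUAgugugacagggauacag
mir-424: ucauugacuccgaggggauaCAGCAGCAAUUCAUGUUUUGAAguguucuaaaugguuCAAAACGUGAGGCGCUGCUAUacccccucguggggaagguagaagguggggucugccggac
The deposited sequences of 118, 101 and 118 nt each hold the RefSeq hairpin with 10 further bases on either side.

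The mir-15b and mir-16-2 hairpins lie on the plus strand of chromosome 3 (GRCh38), from 160404588 to 160404685 and from 160404745 to 160404825, with 59 nt between them. No exon of the host gene SMC4, which encodes a condensin subunit, overlaps either hairpin in GENCODE release 29, so both are intronic, and the gene AC079594.2 spans them on the opposite strand. The mir-424 hairpin lies on the minus strand of chromosome X, from 134546614 to 134546711. The long non-coding RNA MIR503HG starts inside it: annotated exons at that start overlap 10 to 19 of the 98 bases of the RefSeq hairpin, at its 3′ end.

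The mature miRNAs are shown with their seeds in capitals, because the seed is shared on the 5′ arm and differs on the 3′ arm that the scores describe.
miR-15b-5p: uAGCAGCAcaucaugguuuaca
miR-16-5p: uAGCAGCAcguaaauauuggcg
miR-424-5p: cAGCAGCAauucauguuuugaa
miR-15b-3p: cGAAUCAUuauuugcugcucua
miR-16-2-3p: cCAAUAUUacugugcugcuuua
miR-424-3p: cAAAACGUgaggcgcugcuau
The 3 5p miRNAs had 1 seed, agcagca, and no other hairpin among the 100 of the table with both arms placed had it on the 5′ arm. Each 3p seed was found in 1 hairpin of those 100. The whole 3p miRNA of each member occurs in 1 RefSeq hairpin, and its longest identical run in another hairpin of the table was 9 nt. By contrast, miR-16-5p is identical in MIR16-1 and MIR16-2, but that arm is not the one listed.

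Each hairpin had 1 variation score for each construct, a number headed "global variation" in the table, for which the sources used here give no formula. The score is read here as the spread of the 5′ ends of the listed miRNA, with higher values for more varied ends. The sources used here also leave out how the 3 samples of a group entered it. The table gives 1 value for the group, so a difference between constructs has no replicate check, no test was run, and the depth is unknown. A change is the DICER-delHelicase score minus the DICER-WT score. A limit of 0.1 on the change is used to count hairpins.

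The 3 relatives had 3 different patterns. The score of mir-15b was near 0 with both constructs, that of mir-16-2 was lower with DICER-delHelicase than with DICER-WT, and that of mir-424 was much higher. In ascending order the DICER-WT scores ran mir-15b, mir-424, mir-16-2, and the DICER-delHelicase scores ran mir-15b, mir-16-2, mir-424. Whether neighbours in these orders differ beyond the spread between samples could not be examined. With DICER-delHelicase, 2 of the 3 scores were higher and 1 was lower, where 72.1% of all 147 hairpins were higher and 25.9% lower. Past the limit of 0.1 there was 1 hairpin upward (mir-424) and 1 downward (mir-16-2), against 37.4% and 7.48% of all hairpins. The lowest score of the table was 0. If scores cannot be lower, hairpins with a DICER-WT score under 0.1, such as mir-15b and mir-424, could not be counted downward. The 7.48% takes in such hairpins. The median change of the 3 was 0.000442, that of mir-15b itself, beside 0.0261 over all hairpins.

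**Figure D1:**
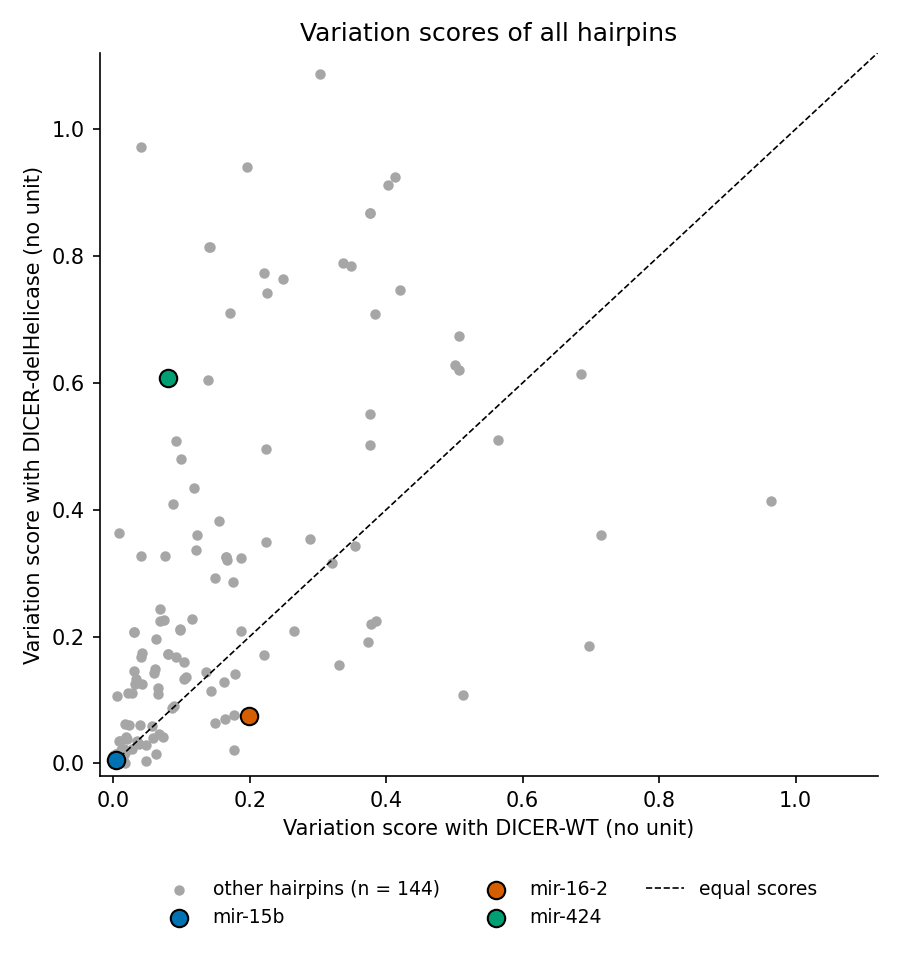
Variation score with DICER-WT (x axis) against that with DICER-delHelicase (y axis), both without unit, 1 point per hairpin and no error bars because each construct has 1 value. The point of mir-424 lies far above the dashed line of equal scores, mir-16-2 lies below it and mir-15b lies at the lower left corner.

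The mir-15b hairpin, the first of the SMC4 pair, had the lowest score of the 3 with both constructs. With DICER-WT the hsa-mir-15b score was 0.00463, and DICER-delHelicase gave 0.00507. These were ranks 24 and 16 from the lowest of the 147 hairpins, so it was among the lowest scores of the table with both constructs. Its change of 0.000442 was rank 42 from the lowest. The 10 hairpins nearest to it in DICER-WT score, listed for 8 miRNAs, had scores of 0.00228 to 0.00600. Of these 10 hairpins, 8 had a larger change and 2 a smaller one, and those 2, mir-19b-1 and mir-19b-2, share 1 miRNA. The changes of those 10 ran from -0.00261 (mir-19b-2) to 0.1002 (mir-181a-2), so a low DICER-WT score was also found in a hairpin with a far larger change. The main DICER-WT end of miR-15b-3p was at offset 0, and its 2-nt class, a Yes or No entry made from the DICER-WT products, was No.

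The mir-16-2 hairpin, its neighbour in the intron, had a lower score without the helicase domain than with it. With DICER-WT the hsa-mir-16-2 score was 0.199, and DICER-delHelicase gave 0.0749. Counted from the highest, these were rank 35 and rank 94. The change of -0.124 was rank 10 from the lowest, and 11 hairpins in all were lower by at least the limit of 0.1. Of the 10 hairpins nearest in DICER-WT score (0.176 to 0.223), 6 were higher with DICER-delHelicase, and only mir-106b, at -0.156, had a change below that of mir-16-2. The largest change among them was 0.743, that of mir-139.

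The main DICER-WT 5′ end of miR-16-2-3p was not at position 0 of the table. Its offset was -1, read here as 1 nt, and an offset other than 0 was found in 7 of the 147 hairpins (4.76%). The header gives neither the unit, the sign nor the reference position of the offset. If it counts nucleotides from the annotated 3p start and a negative offset means an earlier start, the main DICER-WT product begins with the base before the annotated miRNA. It is printed with its seed in capitals because it differs from the annotated seed.
miR-16-2-3p, 1 nt earlier: aCCAAUAUuacugugcugcuuua
With the opposite sign and the same reference position, the seed would be aauauua. The annotated seed is caauauu, and with another reference position neither reading need hold. The 2-nt class of mir-16-2 was Yes.

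The other hairpins with an offset of -1 were mir-425, which scored 0.374 (WT) and 0.191 (delHelicase), and mir-29a, which scored 0.506 and 0.620. The DICER-WT score of mir-16-2 was the lowest of the 7 hairpins with an offset, whose median was 0.506 for the WT and 0.361 for the delHelicase construct. Of these 7, 5 were lower with DICER-delHelicase, beside 25.9% of all hairpins. Among the 11 hairpins that were lower past the limit, 5 had an offset, beside 4.76% of all hairpins, and 6 had none. The shares over all hairpins take in many low DICER-WT scores (median 0.0804), which have less room to fall than those of the 7. Neither share was taken over hairpins of like DICER-WT score, so a link between offset and change cannot be read from them. The offset was given only for DICER-WT, so the main end with DICER-delHelicase was not analysed here.

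The mir-424 hairpin, which overlaps the start of MIR503HG on chromosome X, had a middling score with full-length DICER and a high one without the helicase domain. With DICER-WT the hsa-mir-424 score was 0.0804, and DICER-delHelicase gave 0.608. The former was the median of the 147 DICER-WT scores, at rank 74, and the latter was rank 22 from the highest. Its change of 0.527 was rank 8 from the highest. The 10 hairpins nearest in DICER-WT score (0.0725 to 0.0917) were listed for 9 miRNAs. Of these hairpins 9 were higher with DICER-delHelicase, by up to 0.416 in mir-30e. All 10 had a smaller change than mir-424. The median DICER-delHelicase score of those 10 was 0.172. The main DICER-WT end of miR-424-3p was at offset 0 and its 2-nt class was Yes.

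**Figure D2:**
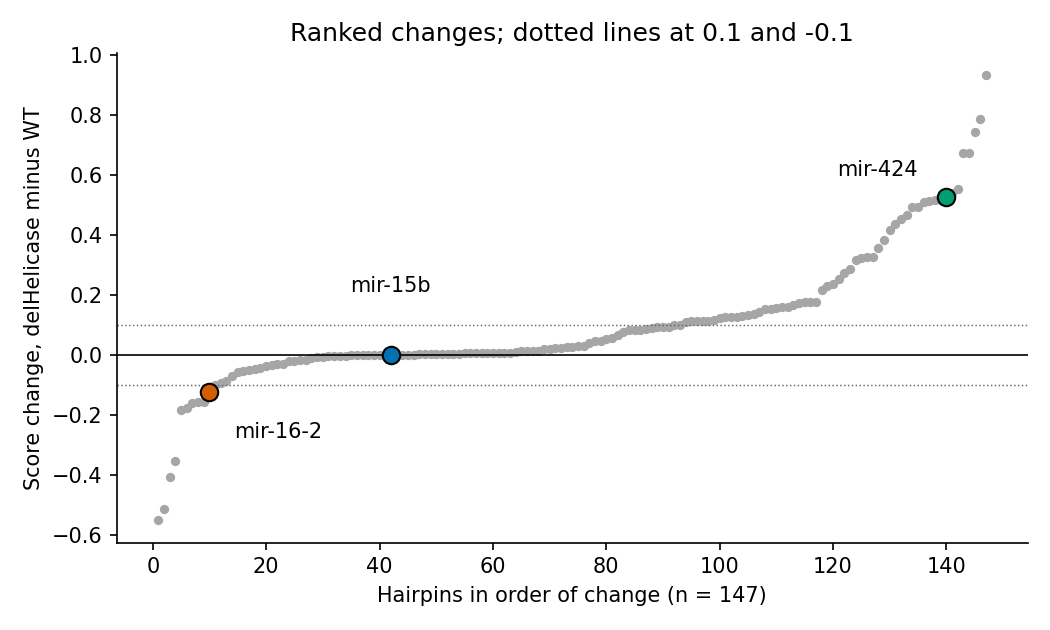
Score change (DICER-delHelicase minus DICER-WT, y axis, no unit) of the 147 hairpins in ascending order (x axis), with the 3 family members in colour and dotted lines at 0.1 and -0.1. The member mir-16-2 lies below the lower dotted line, mir-15b lies at 0 and mir-424 lies near the upper end.

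The distance between the members depended on the construct. With DICER-WT the scores of the 3 hairpins lay within 0.195 of each other, and with DICER-delHelicase they lay within 0.602. The gap between the SMC4 neighbours mir-15b and mir-16-2 went from 0.195 to 0.0698. The gap between mir-16-2 and mir-424 went from 0.119 to 0.533, and mir-424 passed from the lower to the higher of that pair.

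The hairpins most like each member were those with the smallest distance over the 2 scores. For mir-15b they were mir-19b-1 (0.00517 for WT and 0.00395 for delHelicase), mir-25 (0.00326 and 0.00693) and mir-221 (0.00237 and 0.00391), at distances of 0.00124 to 0.00253. For mir-16-2 they were mir-125a (0.178 and 0.0760), mir-421 (0.164 and 0.0706) and mir-361 (0.149 and 0.0631), at 0.0216 to 0.0515. These 3 had their main DICER-WT end at offset 0, so their scores, but not their offset, were like those of mir-16-2. For mir-424 they were mir-132 (0.139 and 0.605), mir-30e (0.0917 and 0.508) and mir-576 (0.0993 and 0.480), at 0.0587 to 0.129. Each likeness rests on 2 values and says nothing of how the hairpins are related.

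**Figure D3:**
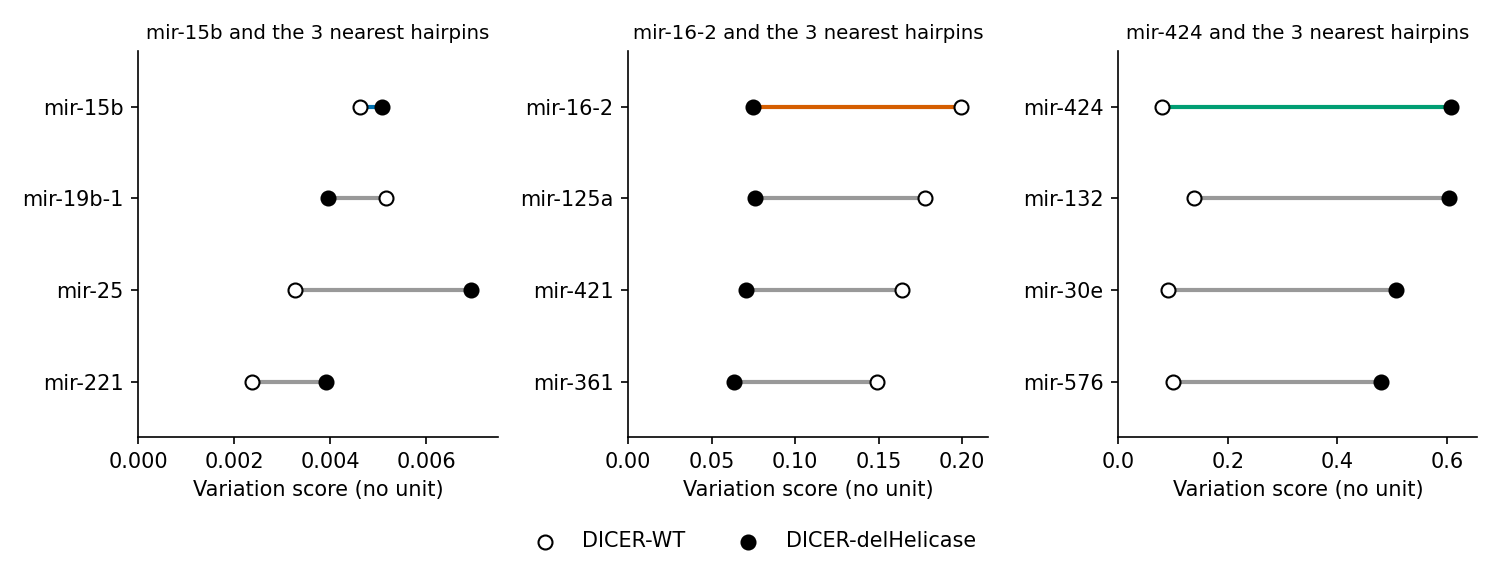
Variation scores (x axis, no unit, with a different range in each panel) with DICER-WT (open circles) and DICER-delHelicase (filled circles) of each member and the 3 hairpins nearest to it. The open circle lies to the right of the filled one in mir-16-2 and its 3 nearest hairpins, and to the left in mir-424 and its 3. These hairpins were chosen for scores near those of the member, so the shared direction is no separate result.

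The wider group of miRNAs with the letters agcagca near the start, which includes miR-103 and miR-107, had 6 of its 12 listed hairpins in the table. These were the same 6 hairpins (4.08% of 147) whose deposited sequences hold agcagca, searched on the given strand. In mir-103a-1 and mir-103a-2 the letters begin at base 1 of the 3p miRNA instead of base 2 of the 5p miRNA. The listed 3p product of those hairpins is thus the arm that carries the letters, unlike in the 3 members. The WT and delHelicase scores of mir-103a-1 were 0.0304 and 0.206, those of mir-103a-2 were 0.0304 and 0.207, and those of mir-107 were 0.0116 and 0.0211. The mir-103a copies share 1 miRNA and possibly reads. Of the 6 hairpins 5 were higher with DICER-delHelicase, 3 of them past the limit, beside 72.1% and 37.4% of all hairpins, and mir-16-2 was the 1 that was lower. Of 8 listed hairpins from the genomic clusters of the members (the members, mir-503, mir-542 and the mir-450 copies), the table used here held the 3 members.

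The predicted structures of the members differed most in the loop. Each deposited sequence was folded to its structure of minimum free energy, and the same features were read in the 100 hairpins of the table with both arms placed. The terminal loop of mir-16-2 had 17 unpaired bases, the largest of the 100 (the next had 16, in mir-10a), where the median was 6. That of mir-15b had 7, and that of mir-424 had 3, a size found in 8 of the 100. The arms of mir-16-2 were separated by 21 nt, those of mir-15b by 16 nt and those of mir-424 by 15 nt, beside a median of 16. From the first base of the 5p to the last base of the 3p the precursors measured 60 nt in mir-15b, 65 nt in mir-16-2 and 58 nt in mir-424 (median 60). In the stretch between the arms 85.7% of the bases of mir-16-2 were A or U, against 56.3% in mir-15b, 66.7% in mir-424 and a median of 53.4%.

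Pairing at the 3p start, where DICER cleaves, also differed among the members. Each had 1 single mismatch (1 unpaired base on either arm) within 5 nt of that start, at a different distance. In mir-15b it was the first base of the 3p itself, facing base 20 of the 5p. In mir-16-2 it was the base just before the 3p, facing base 21 counted from the 5p start. That base would be the first of the main DICER-WT product if the offset of -1 counts from the annotated 3p start and means an earlier start. In mir-424 it was the third base before the 3p, facing base 23 counted from the 5p start. Besides its mismatch, mir-15b had an unpaired base with none facing it, between the paired bases 23 and 25 counted from the 5p start. The terminal loop of mir-16-2 also reached within 5 nt of the 3p start.

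The stem below the 3p start was most complete in mir-424. No base among the first 10 of miR-424-3p was unpaired, as in 31 of the 100 hairpins, and an unbroken run of 13 base pairs passed through its first base (median 6 over the 87 hairpins whose first 3p base was paired). In mir-16-2 that run had 8 pairs, and 2 of the first 10 bases of miR-16-2-3p were unpaired. These were bases 9 and 10, whose predicted pairing probabilities over all structures were nevertheless 0.700 and 0.667. In mir-15b 2 of the first 10 bases were unpaired, the first base being one of them. The mean predicted pairing probability over the 10 bases around the 3p start was 0.884 in mir-424, 0.802 in mir-15b and 0.710 in mir-16-2 (median 0.757). The folding energy was that of the whole deposited sequence, not of the precursor or of this stem alone. Per 100 nt it was -25.8 kcal/mol in mir-15b, the weakest of the 100, -35.5 in mir-16-2 and -45.3 in mir-424 (median -43.4). It takes in base pairs outside the precursor, where mir-15b and mir-424 each had a further predicted stem.

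**Figure D4:**
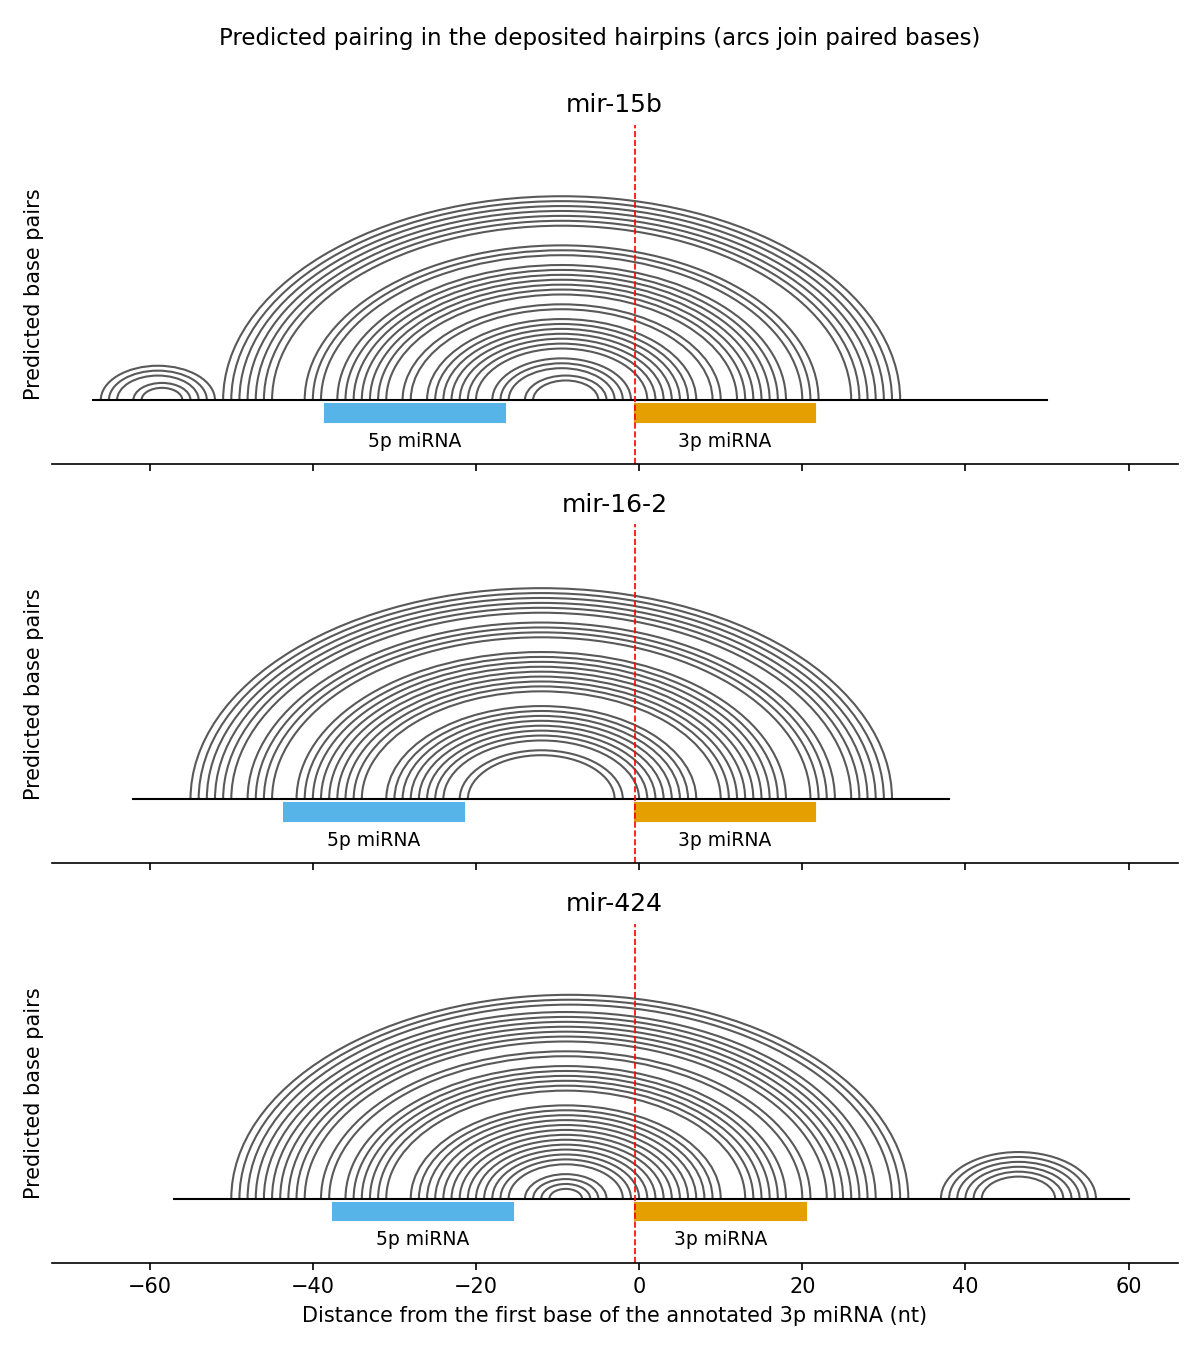
Predicted base pairs (arcs) along the deposited hairpins, by distance in nt from the first base of the annotated 3p miRNA (x axis), with the 5p and 3p miRNAs as bars and the 3p start as a dashed line. The open space under the innermost arcs is the terminal loop, of 17 bases in mir-16-2, 7 in mir-15b and 3 in mir-424.

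The 2-nt class was Yes in 2 of the 3 members, beside 49.7% of all hairpins. In those, mir-16-2 and mir-424, the first base of the annotated 3p was paired so that the annotated 5p ended 2 nt beyond its partner. The class was made from the DICER-WT products, and the main DICER-WT end of mir-16-2 was at offset -1. The header does not say whether the class records an overhang. An overhang at the end with offset -1 was not read. Even if the class records one, it and the predicted overhang of mir-16-2 may describe different ends. In mir-15b, of class No, the first 3p base was unpaired and no such overhang could be read. Of the 54 hairpins with a predicted overhang of 2 nt at the annotated ends among the 100, 28 were of class Yes and 26 of class No. The 5p of mir-15b and mir-16-2 begins with U, as in 39 of the 100 hairpins, and that of mir-424 with C, as in 21. With 3 hairpins, no relation between these features and the scores was tested.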

How the data were processed

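The only processed file was a table of 294 lines, 1 per hairpin and DICER construct (147 hairpins, 127 miRNAs). Its values are scores that the authors deposited without a formula, per the file headers a global variation and a main 5′ end for DICER-WT, and a 2-nt class (Yes or No, an entry other than a number). Per the submitters' processing notes, cutadapt, Bowtie2 and bedtools were used with GRCh38. Tool versions, settings and the way samples of a group were combined are not stated there. Depth is unknown, so no interval was attached to a score.

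Changes, ranks and distances were computed with pandas 2.3.3, and the functions were tested on simulated data. RefSeq hairpins matched 128 of the 147 deposited sequences, and both mature arms were placed in 100. Structures were predicted with ViennaRNA 2.7.2 at 37 °C. Alternatives were log2 ratios, other sets of hairpins, other limits, centroid structures and no dangling ends. A comparison with the 10 hairpins nearest in DICER-WT score was added after the data were seen, and so were the base composition, the mismatches and the pairing runs. Named hairpins were the members, 2 fixed lists, the 3 nearest hairpins of each member and hairpins with the same offset. The extremes of a set and mir-10a were picked for their values. The members and lists were chosen with earlier results of these data known.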

Additional observations from a re-analysis of the deposited data

How the results depend on the processing

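No value changed its sign in any alternative run. As log2 ratios with 0.01 added to each score, the changes were 0.04 for mir-15b, -1.30 for mir-16-2 and 2.77 for mir-424. The share of the other hairpins with a smaller change stayed within 10 percentage points of the main value in the 5 alternatives for each member, with a range of 20.0% to 30.2% for mir-15b, 3.57% to 10.0% for mir-16-2 and 94.4% to 100% for mir-424. The share of hairpins past the limit upward was 46.3% at 0.05 and 20.4% at 0.2, and the share downward was 11.6% at 0.05 and 2.72% at 0.2, where mir-16-2 no longer counted; a lower or higher limit passes more or fewer hairpins by construction. In the centroid structure of mir-16-2 the run of pairs through the first 3p base was 7, and 1 of the first 10 bases was unpaired. Bases 9 and 10 of miR-16-2-3p, unpaired in the structure of minimum free energy, had pairing probabilities of 0.700 and 0.667. The cause of the difference between the structures was not tested. On a log10 scale 2 of the 3 nearest hairpins were shared for mir-15b, 3 for mir-16-2 and 2 for mir-424. No paired analysis was possible because no replicate has a column or line of its own, so replicates could not be left out either. Since depth is unknown, the precision of scores near 0, such as those of mir-15b, is unknown too.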
